A study of Mus musculus with 6 samples.

Results

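Imprinted genes are transcribed mainly from the maternal or mainly from the paternal copy, and 38 of them, given as a fixed list of named members, were followed here among 52636 genes counted. Each of the 38 symbols matched 1 Ensembl gene, and they fall into 16 imprinted domains or single loci. E14 is a line of mouse embryonic stem cells, and its RNA was sequenced after LIF and the inhibitors of MEK and GSK were withdrawn and retinoic acid, the signalling form of vitamin A, had been given for 4 days. The dose was 5 in a unit that the labels write as µm. There were 3 libraries of enhancer cluster-KO E14 cells (KO) and 3 of wild-type E14 cells (WT), all with the same 4 days of treatment, and the series design calls them biological replicates. The design text calls the cells NPC, while the sample labels give embryonic stem cells as the cell type. The series title links the deleted enhancer cluster to HoxB genes and neural progenitor formation. The position of the deletion and the number of KO clones are not given in the sources used here, so a difference between the groups is a difference between these KO and WT cells, whatever its route.

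At an imprinted domain, an imprinting control region carries DNA methylation from only the egg or only the sperm, and this mark decides which copy of the neighbouring genes is read. Many domains pair protein-coding genes with a long noncoding RNA read from the other parental copy, such as Airn at Igf2r, Kcnq1ot1 at Kcnq1 and H19 at Igf2. The genes are known for setting growth of the embryo and placenta, and the marks are known to be lost or shifted in some embryonic stem cell cultures. Counts per gene carry no information on the parent of origin, so the levels below are sums over both copies, and loss of imprinting was not measured.

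Gene counts were 7780368 to 8521902 in the KO libraries and 8208615 to 9472916 in the WT libraries. KO replicate 1 stood apart from the rest, with 1.04% of its counts on genes over ribosomal RNA repeats (0.0726 to 0.118% elsewhere). The share of mitochondrial transcripts was 2.58 to 2.89% in KO and 1.67 to 1.73% in WT. Markers were read to check the label of the cells, in a comparison where 68.6% of all genes tested changed. Values in CPM are counts scaled to library totals, after TMM correction. The 12 pluripotency markers summed to 1264 to 1306 CPM in KO and 1489 to 1526 CPM in WT (4 rose and 7 fell). Those with the smallest adjusted p all fell. Nanog fell to 32.8 CPM in KO, against 164 CPM in WT, and Zfp42 to 41.7 CPM in KO, against 123 CPM in WT. Esrrb fell to 49.2 CPM in KO, against 111 CPM in WT, and Sox2 to 26.7 CPM in KO, against 74.9 CPM in WT. The 4 that rose were Tfcp2l1, to 153 CPM in KO, against 92.0 CPM in WT, Lin28a, Klf4 and Pou5f1. Dppa5a did not pass, at 354 CPM in KO and 351 CPM in WT. The summed level of 12 neural progenitor markers was 50.8 to 62.4 CPM in KO and 312 to 330 CPM in WT, mostly Nes and Tubb3 in WT. Only 6 of these 12 had enough reads to test, and Fabp7 was at 0 in all 6 libraries. Of the 6 tested, 1 rose and 4 fell. Pax6 rose, to 4.76 CPM in KO, against 2.12 CPM in WT, while Nes, Tubb3, Sox3 and Zic1 fell and Sox1 did not pass. The 15 extraembryonic endoderm markers summed to 15389 to 15648 CPM in KO and 5652 to 5736 CPM in WT. Most of this sum in both groups was Col4a1, Lamb1, Lama1 and Sparc. Of the 15, 12 rose, Gata6 and Gata4 among them. Sox17 fell, to 20.4 CPM in KO, against 32.0 CPM in WT, and Foxa2 and Ttr did not pass. Nes and Tubb3 were thus lower in KO, and the other neural progenitor markers were sparse in both groups. Stem cell and endoderm markers were present in both groups.

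The promoters shown here belong to 5 genes whose values carry the results below. Peg3 shares its start region with Usp29, and these genes moved in opposite directions. Kcnq1ot1 and Airn are the noncoding RNAs of their domains, Meg3 is the first RNA of the maternally expressed run on chromosome 12, and Nnat had the lowest adjusted p of all 38. Each window runs from 250 bases before to 50 bases after the RefSeq start (GRCm38.p6), 5′ to 3′ on the gene's own strand, with every CpG in capitals, since CpG is the site of the methylation that marks imprints. The windows are chr7:6730370-6730669, minus strand, for Peg3, chr2:157559828-157560127, plus strand, for Nnat, chr7:143296498-143296797, minus strand, for Kcnq1ot1, chr17:12741061-12741360, plus strand, for Airn, and chr12:109540746-109541045, plus strand, for Meg3.
Peg3: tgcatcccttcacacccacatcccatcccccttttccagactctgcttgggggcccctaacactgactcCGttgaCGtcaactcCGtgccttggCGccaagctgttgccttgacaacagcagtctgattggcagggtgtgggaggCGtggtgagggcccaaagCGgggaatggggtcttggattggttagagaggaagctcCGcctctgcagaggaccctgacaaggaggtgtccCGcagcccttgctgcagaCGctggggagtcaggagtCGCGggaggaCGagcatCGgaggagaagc
Nnat: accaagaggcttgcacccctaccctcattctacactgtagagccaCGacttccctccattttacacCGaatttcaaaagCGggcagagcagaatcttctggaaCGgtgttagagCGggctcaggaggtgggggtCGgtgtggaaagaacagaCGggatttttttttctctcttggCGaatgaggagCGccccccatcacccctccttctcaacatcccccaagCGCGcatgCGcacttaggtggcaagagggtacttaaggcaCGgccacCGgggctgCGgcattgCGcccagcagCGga
Kcnq1ot1: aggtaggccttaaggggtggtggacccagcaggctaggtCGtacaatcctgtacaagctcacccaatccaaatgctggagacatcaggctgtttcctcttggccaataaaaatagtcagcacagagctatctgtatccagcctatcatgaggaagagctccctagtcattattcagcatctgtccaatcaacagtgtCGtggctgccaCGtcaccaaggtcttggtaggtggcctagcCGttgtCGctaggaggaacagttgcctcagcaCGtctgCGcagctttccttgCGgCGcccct
Airn: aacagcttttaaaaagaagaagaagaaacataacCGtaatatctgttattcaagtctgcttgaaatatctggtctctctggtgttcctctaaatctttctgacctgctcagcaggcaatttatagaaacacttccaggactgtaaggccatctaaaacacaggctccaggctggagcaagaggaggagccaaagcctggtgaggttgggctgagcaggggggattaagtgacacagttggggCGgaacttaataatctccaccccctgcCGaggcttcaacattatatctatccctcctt
Meg3: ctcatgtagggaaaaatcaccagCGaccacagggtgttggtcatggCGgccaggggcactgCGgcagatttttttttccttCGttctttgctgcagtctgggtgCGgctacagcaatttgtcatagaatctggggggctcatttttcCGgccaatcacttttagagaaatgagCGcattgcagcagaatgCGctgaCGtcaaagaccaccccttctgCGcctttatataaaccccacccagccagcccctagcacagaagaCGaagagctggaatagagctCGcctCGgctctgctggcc

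These windows hold 13 CpGs for Peg3, 17 for Nnat, 9 for Kcnq1ot1, 3 for Airn and 13 for Meg3. RefSeq windows were found for 29 of the 38 genes, 44 windows in all, with a median of 13.5 CpGs, and the median of all 32851 windows of mouse genes was 7. The letters TGCCGC, the core that the zinc finger protein ZFP57 binds when its CpG is methylated, were searched on both strands. They occurred in 12 of the 44 windows (27.3%), some of which overlap each other, and in 11.6% of all windows. In Nnat the match begins at base 278 of the window and in Meg3 at base 61, both on the opposite strand. The windows of Peg3, Kcnq1ot1 and Airn do not hold these letters. A match is a description of the letters only.

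Of the 38 imprinted genes, 34 passed the filter on low counts, and 27 changed in KO, 14 higher and 13 lower. The others divide into 7 that did not pass the test and 4 with too few reads. Over all 15816 genes tested, 68.6% changed, 34.5% higher and 34.0% lower, so a change was common everywhere in this comparison. The median log2 fold change of the 34 was 0.0097 and that of all genes 0.0091. The median absolute value was 0.57 for the 34, against 0.49 for all genes. In 28 of the 34 genes the 3 KO values did not overlap the 3 WT values, as in 70.9% of all genes. For the called genes other than Zrsr1 the adjusted p ran from 1.08e-18 to 0.00833. Without KO replicate 1 the count was 26, with 14 higher and 12 lower. Because these are bulk samples, fewer cells of a type and less RNA per cell cannot be told apart, and the part of the shift in endoderm and neural markers in these values was not tested.

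**Figure D1:**
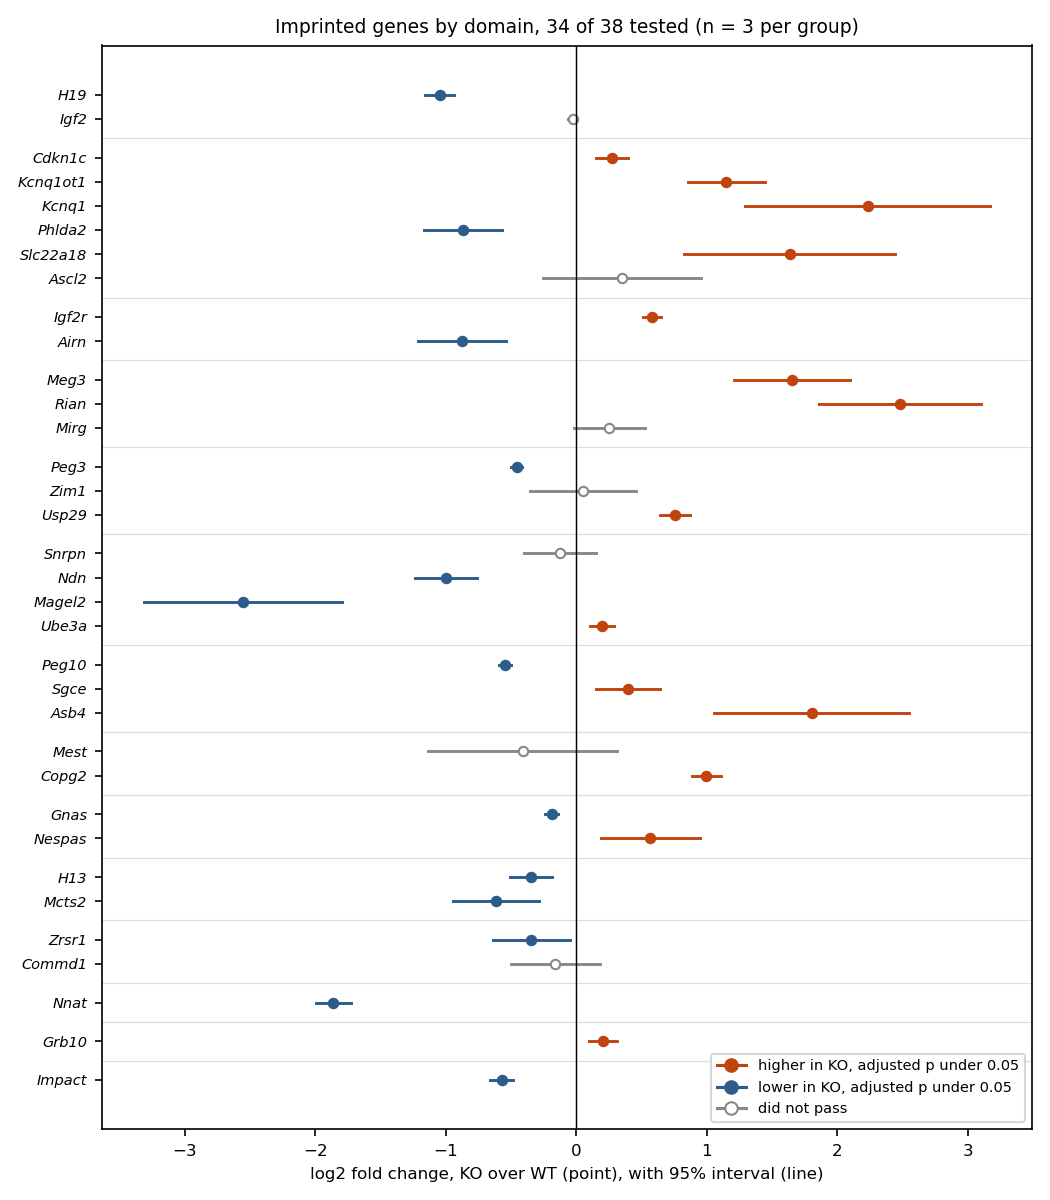
Log2 fold change of each tested imprinted gene, KO over WT, with its 95% interval, grouped by domain. Filled red points passed the test above 0 (14 genes), filled blue points below 0 (13 genes), and 7 open grey points did not pass. In 6 domains genes passed on both sides of 0.

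Taken per kb of exon, which allows levels of different genes to be compared, Igf2 stood highest, at 417.6 CPM per kb in KO and 426.3 in WT. The lowest of the 34 was Magel2 in KO, at 0.160 in KO and 0.955 in WT, and Rian in WT, at 0.472 in KO and 0.0847 in WT. After Igf2 came Peg10 at 214 in KO and 313 in WT, Peg3 at 142 in KO and 194 in WT, and Gnas at 106 in KO and 121 in WT, in that order in both groups. Next was Igf2r in KO, at 75.2 in KO and 50.4 in WT, while in WT Nnat stood between Gnas and Igf2r, at 17.8 in KO and 64.6 in WT. Counts of Igf2, Peg3, Peg10 and Gnas made up 78.8 to 79.2% of all imprinted gene counts in KO and 83.3 to 83.7% in WT. All 38 genes together held 0.857 to 0.886% of counts in KO and 0.998 to 1.02% in WT, and the groups did not overlap. Without those 4 genes the order was the other way, with 0.182 to 0.184% in KO and 0.163 to 0.1697% in WT. Replicates lay close together for the 14 genes with a mean of at least 50 CPM, with a coefficient of variation of 0.478 to 8.26% (median 2.94%), while for the 6 tested genes under 5 CPM the median was 37.3%.

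**Figure D2:**
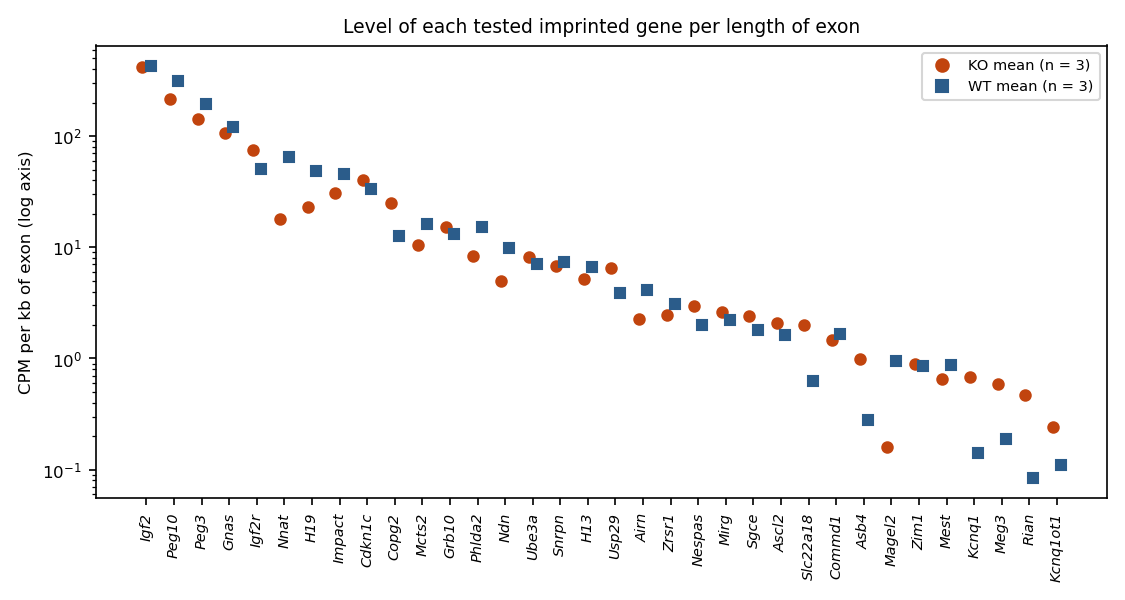
Mean level of each tested imprinted gene in CPM per kb of exon on a log axis, KO (red circles) and WT (blue squares), ordered by the higher of the 2 means. Igf2, Peg10, Peg3 and Gnas stand above 100 CPM per kb in both groups, and Kcnq1ot1, Rian and Meg3 are among those below 1 in both.

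The H19 and Igf2 genes share enhancers on distal chromosome 7, where H19 is a maternally expressed noncoding RNA and Igf2 a paternally expressed fetal growth factor. H19 (ENSMUSG00000000031, chr7:142575529-142578143, GRCm38) stood at 54.6, 56.8 and 60.1 CPM in KO, against 121, 115 and 119 CPM in WT. Every KO library was below every WT library, with an edgeR log2 fold change of -1.05 (SE 0.054, 3 libraries a group, adjusted p = 3.27e-15). All falls and rises below are on this log2 scale. Igf2 (chr7:142650766-142666816) stood at 2351.5, 2410.9 and 2406.5 CPM in KO and at 2440.1, 2476.6 and 2401.9 CPM in WT. Its groups overlapped, the log2 fold change was -0.03 (95% interval -0.067 to 0.0078, adjusted p = 0.150), and it was 0.0069 with upper-quartile scaling. The count ratio of H19 to Igf2 within a library, which does not depend on how libraries are scaled, was 0.0232, 0.02355 and 0.0250 in KO and 0.0496, 0.0464 and 0.0497 in WT. Igf2os, an antisense RNA at Igf2 whose exons cover 1.71% of the exon length of Igf2, fell by 1.03 (SE 0.077).

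The IGF2 receptor gene Igf2r and its antisense noncoding RNA Airn, on chromosome 17, moved in opposite directions. Igf2r, which encodes a receptor that clears IGF2 from the cell surface, stood at 696.6, 700.8 and 703.2 CPM in KO and at 463 (replicate 1), 454 (replicate 2) and 489 (replicate 3) CPM in WT. It rose by 0.58 (SE 0.034, adjusted p = 6.83e-14). Airn, which is read from the paternal copy through Igf2r from a start inside that gene and silences the paternal Igf2r in embryonic tissues, had 50, 76 and 73 counts in KO and 133, 154 and 104 in WT. It fell by 0.87 (SE 0.16, adjusted p = 4.06e-05). For both genes the KO and WT libraries did not overlap, and in the annotation their exons share no bases, although Airn lies partly within Igf2r. As strands were taken as not told apart, reads from Igf2r introns over Airn exons cannot be separated from Airn.

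The Kcnq1 domain, also on distal chromosome 7, is controlled by the promoter of Kcnq1ot1. This paternally expressed RNA runs antisense inside Kcnq1 and silences the paternal copies of the maternally expressed genes around it. Kcnq1ot1 (chr7:143203458-143296549) stood at 22.2, 24.5 and 20.6 CPM in KO and at 8.99, 8.83 and 12.6 CPM in WT, and rose by 1.15 (SE 0.14). It is annotated as 1 exon of 93092 bases inside Kcnq1. As strands were taken as not told apart, reads from Kcnq1 introns there cannot be separated from it. Of the 5 maternally expressed genes, 3 rose, 1 fell and 1 did not pass. Kcnq1, a potassium channel gene, had 30, 18 and 19 counts in KO and 8, 4 and 3 in WT (log2 fold change 2.23, SE 0.45), and Kcnq1ot1 covers 2.96% of its exon length on the other strand. Slc22a18, a transporter gene, rose too, also on few reads, with 24, 31 and 27 counts in KO and 3, 12 and 13 in WT (log2 fold change 1.63, SE 0.39).

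Cdkn1c, which encodes the cell cycle inhibitor p57, rose by 0.28 (SE 0.059), to 83.6, 82.5 and 81.8 CPM in KO, against 66.0, 73.3 and 65.0 CPM in WT. Phlda2, a gene that restrains placental growth, was the member that fell, by 0.87 (SE 0.14), with 9.66, 9.23 and 9.25 CPM in KO and 15.4, 19.4 and 16.6 CPM in WT. Its count ratio to Cdkn1c was 0.112 to 0.116 in KO and 0.233 to 0.264 in WT. Ascl2, a transcription factor gene of trophoblast, had 25 to 29 counts in KO and 17 to 27 in WT and did not pass (0.35, 95% interval -0.26 to 0.95). In CPM its groups did not overlap, at 3.12 to 3.74 in KO and 2.09 to 2.96 in WT. Exons of another gene on the other strand, Gm44732, cover 30.7% of the exon length of Cdkn1c.

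On chromosome 12 the Dlk1-Meg3 domain holds paternally expressed coding genes, Dlk1 and Rtl1, and a maternally expressed run of noncoding RNAs, Meg3, Rian and Mirg. Dlk1, a Notch-like regulator, and Rtl1, a gene derived from a retrotransposon, had 0 counts in every library, which allows at most 0.124 CPM in KO and 0.115 CPM in WT (3 counts over a group, for counting error only). Meg3 rose by 1.65 (SE 0.22), with 99, 70 and 92 counts in KO and 32, 37 and 20 in WT. Rian, the host of C/D box small nucleolar RNAs, rose by 2.48 (SE 0.30), with 44, 65 and 103 counts in KO and 10, 14 and 16 in WT. In both genes every KO library was above every WT library, although the KO values of Rian, 5.67, 8.11 and 12.1 CPM, lay far apart.

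Mirg, the host of a microRNA cluster, was at 163, 134 and 170 counts in KO and 160, 140 and 119 in WT, and did not pass (0.25, adjusted p = 0.0942). It passed without KO replicate 2 (adjusted p = 0.0365) or WT replicate 1 (adjusted p = 0.0264). The count ratio of Mirg to Meg3 was 1.65, 1.91 and 1.85 in KO and 5.00, 3.78 and 5.95 in WT. Exons of other genes on the same strand, mostly small RNAs, cover 3.42% of Rian and 5.03% of Mirg, and reads there can be left out as ambiguous by the counter.

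**Figure D3:**
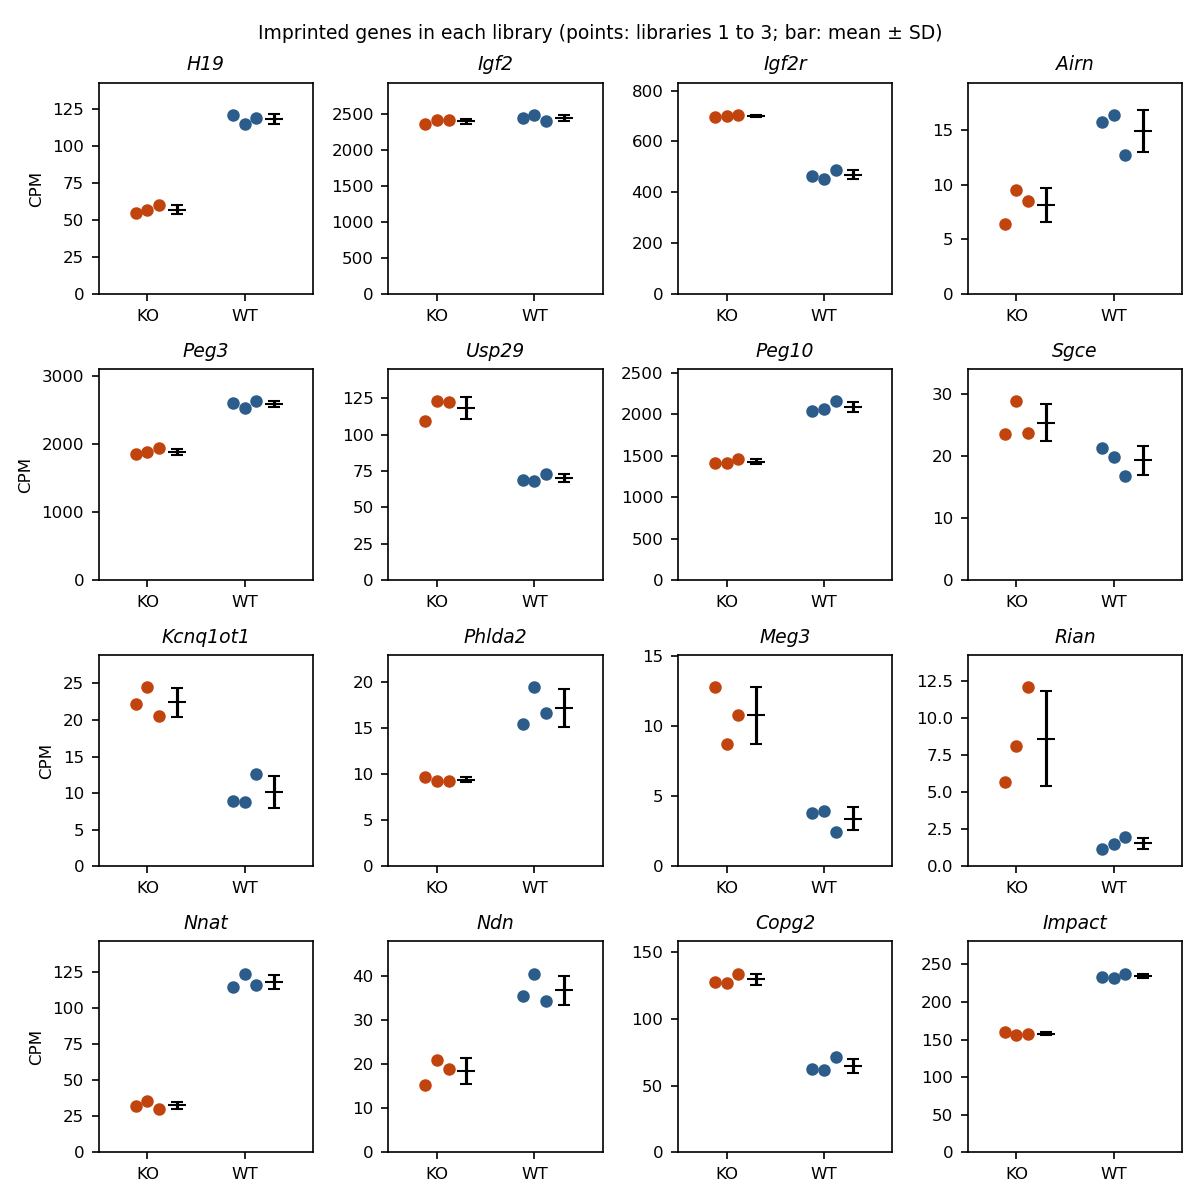
CPM of 16 imprinted genes in each library, KO (red) to the left of WT (blue), with the mean and SD beside the points. H19, Airn, Peg3, Peg10, Phlda2, Nnat, Ndn and Impact were lower in all 3 KO libraries, and Igf2r, Usp29, Sgce, Kcnq1ot1, Meg3, Rian and Copg2 higher, while Igf2 overlapped.

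The Peg3 domain on proximal chromosome 7 and the Peg10 domain on chromosome 6 each hold a pair of genes that start head to head. Peg3, a paternally expressed zinc finger gene, and Usp29, a paternally expressed deubiquitinase gene, start 146 bases apart, and their promoter windows share 263 of 300 bases, including most of the sequence printed for Peg3. Peg3 stood at 1850.1, 1874.6 and 1933.6 CPM in KO and at 2605.8, 2533.2 and 2624.3 CPM in WT, a fall of 0.46 (SE 0.020, adjusted p = 1.39e-16). Usp29 stood at 109, 123 and 122 CPM in KO and at 69.1, 68.2 and 73.1 CPM in WT, a rise of 0.75 (SE 0.054, adjusted p = 3.40e-12). The count ratio of Usp29 to Peg3 was therefore 0.0591, 0.0655 and 0.0633 in KO and 0.0265, 0.0269 and 0.0279 in WT. Zim1, a maternally expressed zinc finger gene of the domain, had 52 to 62 counts in KO and 50 to 79 in WT and did not pass (0.05, 95% interval -0.36 to 0.45). Zim3, whose exons on the other strand cover 14.3% of Usp29, rose as well, by 1.35 (SE 0.22), and reads over the shared bases cannot be assigned to either.

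Peg10, a paternally expressed gene derived from a retrotransposon and needed in the placenta, starts 98 bases from Sgce, the paternally expressed epsilon-sarcoglycan gene. Peg10 fell by 0.55 (SE 0.023, adjusted p = 5.94e-17), with 1408.7, 1412.7 and 1463.4 CPM in KO and 2041.6, 2067.7 and 2157.9 CPM in WT. Sgce was at 23.6, 28.8 and 23.8 CPM in KO and 21.3, 19.8 and 16.8 CPM in WT, and rose by 0.39 (SE 0.12, adjusted p = 0.00530). As at Peg3, the more abundant partner was lower in KO and the less abundant one higher. Asb4, a maternally expressed gene of the domain that encodes an ankyrin repeat protein, had 33, 29 and 33 counts in KO and 11, 14 and 4 in WT (log2 fold change 1.80, SE 0.36).

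In the Snrpn-Ube3a domain, the Prader-Willi and Angelman region of central chromosome 7, both MAGE family genes fell. Ndn, encoding necdin, was at 15.2, 21.0 and 18.97 CPM in KO and 35.5, 40.5 and 34.2 CPM in WT, a fall of 1.00 (SE 0.11). Magel2 had 4, 9 and 5 counts in KO and 35, 42 and 38 in WT, a fall of 2.55 (SE 0.37), the largest fall among the 34 tested genes. Snrpn, encoding a spliceosomal protein, had 111 to 129 counts in KO and 124 to 147 in WT and did not pass (-0.13, 95% interval -0.40 to 0.15), although exons of Snurf and another gene on the same strand cover 27.3% of its length. Ube3a, a ubiquitin ligase gene read from the maternal copy only in neurons, rose by 0.20 (SE 0.046), with 170, 167 and 168 CPM in KO and 141, 145 and 154 CPM in WT. Snhg14, the antisense host transcript on the other strand of Ube3a, rose by 0.30 (SE 0.065), and genes on that strand cover 27.3% of the exon length of Ube3a.

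At Mest and Copg2 on chromosome 6, whose last exons overlap on opposite strands, Copg2 rose and Mest was barely read. Copg2, which encodes a coat protein of Golgi vesicles, stood at 127, 127 and 134 CPM in KO and at 62.4, 61.4 and 70.9 CPM in WT, a rise of 1.00 (SE 0.055, adjusted p = 1.23e-14). Mest, a paternally expressed hydrolase gene, had 17, 30 and 15 counts in KO and 19, 26 and 43 in WT, and did not pass (-0.41, adjusted p = 0.305). Copg2 covers 23.1% of the exon length of Mest, and Mest covers 17.8% of that of Copg2.

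Chromosome 2 holds 3 of the loci. Nnat, the paternally expressed neuronatin gene that lies inside an intron of Blcap, stood at 32.2, 35.3 and 30.1 CPM in KO and at 115 (replicate 1), 124 (replicate 2) and 116 (replicate 3) CPM in WT, a fall of 1.86 (SE 0.066, adjusted p = 1.08e-18). Its host gene Blcap fell by 0.92 (SE 0.086). Gnas, the gene of the stimulatory G protein alpha subunit with several imprinted first exons that are counted together here, fell by 0.19 (SE 0.025), with 1157.5, 1192.3 and 1205.1 CPM in KO and 1332.9, 1374.8 and 1347.2 CPM in WT. Nespas, its paternally expressed antisense RNA, had 80, 69 and 78 counts in KO and 63, 57 and 44 in WT and rose by 0.57 (SE 0.18), but 38.5% of its exon length is covered by exons of Gnas and other genes on the other strand. H13, encoding signal peptide peptidase, had 41.8 to 48.7 CPM in KO and 54.3 to 63.8 CPM in WT and fell by 0.35 (SE 0.078). Mcts2, a paternally expressed retrogene inside it, had 62 to 100 counts in KO and 102 to 144 in WT and fell by 0.61 (SE 0.16). In both the groups did not overlap in CPM, and reads from H13 introns over Mcts2 cannot be separated from Mcts2.

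Chromosome 11 carries HoxB and 3 imprinted members, all far from it. Grb10, an adaptor that dampens insulin and IGF receptor signalling, lies 84.2 Mb from the cluster and rose by 0.20 (SE 0.053), with 147, 137 and 134 CPM in KO and 111, 126 and 125 CPM in WT. Zrsr1, a splicing factor gene inside Commd1, lies 73.2 Mb away and was at 10.95, 11.4 and 10.8 CPM in KO and 12.4, 14.1 and 15.5 CPM in WT. Its fall of 0.34 (SE 0.14, adjusted p = 0.0364) did not pass in 8 of 11 alternatives (adjusted p 0.0550 to 0.134 in those 8). Commd1, a copper metabolism gene, had 63 to 78 counts in KO and 72 to 91 in WT and did not pass (-0.16, 95% interval -0.50 to 0.18). Impact, an inhibitor of the kinase GCN2, is a paternally expressed gene at a locus of its own, and fell by 0.57 (SE 0.042), with 160.0, 156 and 158 CPM in KO and 234, 232 and 238 CPM in WT.

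The single loci Plagl1 and Peg13 were at the limit of detection. Plagl1, a paternally expressed zinc finger gene, had 3 counts over the KO libraries and 8 over the WT libraries, and Peg13, a noncoding RNA inside Trappc9, had 0 counts in KO and 1 in WT. With Dlk1 and Rtl1, all 4 genes that could not be tested are paternally expressed.

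Read by parental copy, from textbook assignments, 18 of the genes are maternally expressed in all or some tissues, all tested, and 20 paternally, 16 of them tested. Of the 18, 10 rose and 4 fell (median log2 fold change 0.26), and of the 16, 4 rose and 9 fell (median -0.43), where 34.5% of all genes rose and 34.0% fell. The paternally expressed genes that rose were Kcnq1ot1, Usp29, Sgce and Nespas, and the maternally expressed ones that fell were H19, Phlda2, Gnas and H13. The difference between these classes was not tested, since their members share domains. Of 17 tested genes with no exon overlap on the other strand, 6 rose and 8 fell.

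Ratios between neighbours were taken for 17 of 18 listed pairs, the pair of Meg3 and Dlk1 being left out as Dlk1 had no reads. In 13 pairs the ratios of the 3 KO libraries did not overlap those of the 3 WT libraries, 5 higher and 8 lower in KO. Single genes did so in 70.9% of all genes tested, the share among ratios of other gene pairs was not computed, and nothing particular to these pairs is read from the count. For each of these 13 the two-sided exact permutation p was 0.1, the smallest that 3 against 3 allows, and 0.131 after Benjamini-Hochberg adjustment over the 17, so no pair could pass. The ratio of Airn to Igf2r differed by -1.46 on the log2 scale, that of Peg10 to Sgce by -0.95 and that of Slc22a18 to Phlda2 by 2.76. The last was 2.17 without WT replicate 1, which had 3 reads of Slc22a18. In the 4 other pairs the groups overlapped, some with differences as large. The ratio of Kcnq1ot1 to Kcnq1 differed by -1.18, that of Rian to Meg3 by 0.76 and that of Zim1 to Peg3 by 0.52 (exact permutation p = 0.2 for each), and that of Mcts2 to H13 by -0.28 (exact permutation p = 0.3).

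**Figure D4:**
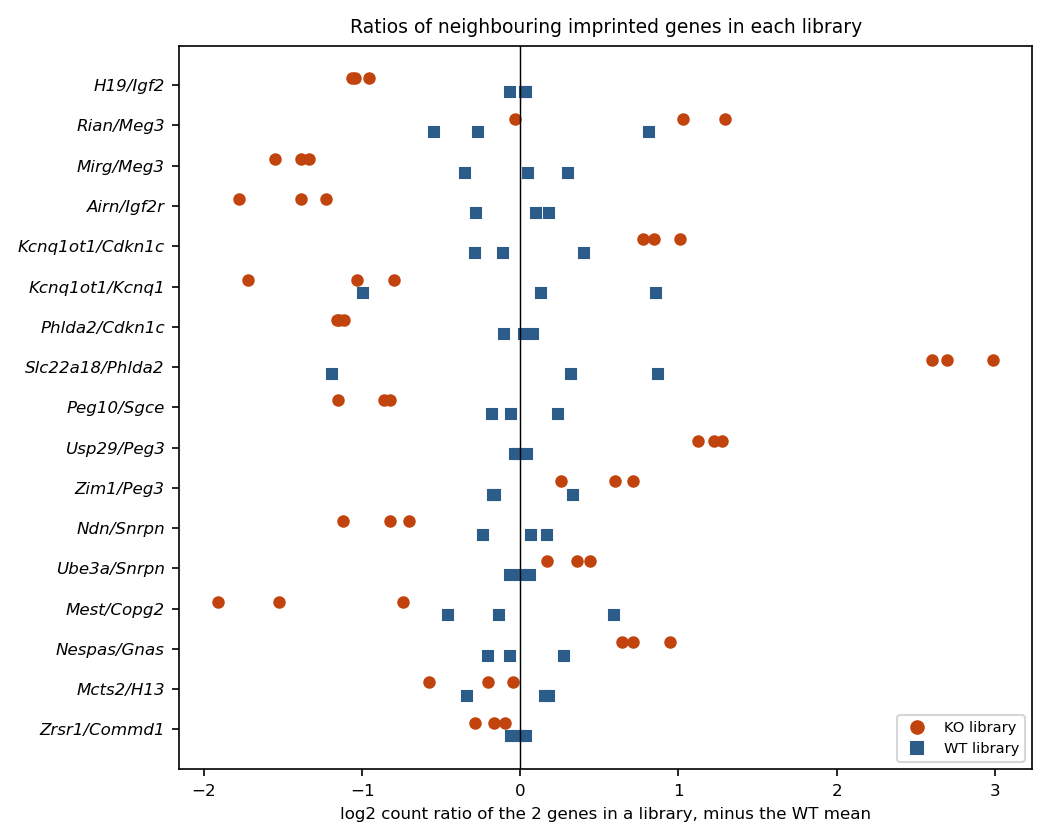
Log2 count ratio of 17 pairs of neighbouring imprinted genes in each library, set to 0 at the WT mean, KO libraries as red circles above WT libraries as blue squares. In 13 pairs, among them H19 to Igf2, Airn to Igf2r and Usp29 to Peg3, the KO and WT libraries do not overlap. For single genes this held in 70.9%, and the share among ratios of other gene pairs was not computed.

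Other imprinted genes were followed with a list of 50, of which 37 were tested, and 14 rose and 16 fell (81.1% changed, beside 68.6% of all genes). Those with the smallest adjusted p were Slc38a4, Sfmbt2, Zdbf2 and Igf2os. Slc38a4, an amino acid transporter gene, averaged 387 ± 9.15 CPM in KO and 717 ± 7.38 CPM in WT (SD, n = 3 each), a fall of 0.89 (SE 0.034). Zdbf2, a zinc finger gene, fell by 0.98 (SE 0.045), to 137 ± 7.23 CPM in KO, against 271 ± 2.55 CPM in WT. Sfmbt2, a Polycomb group gene, rose by 1.31 (SE 0.054), to 127 ± 2.66 CPM in KO, against 51.4 ± 2.96 CPM in WT. Dio3, a thyroid hormone deiodinase gene at the far end of the Dlk1-Meg3 domain, averaged 1.44 ± 0.275 CPM in KO and 11.4 ± 0.202 CPM in WT (log2 fold change -2.98, SE 0.23), the opposite direction to Meg3 and Rian.

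Proteins that place, keep or erase imprints were listed as 23 genes, of which 22 were tested. Of these, 7 rose and 11 fell (81.8% changed, beside 68.6% of all genes). Among those that fell were genes whose proteins read or copy methylation at imprints. Zfp57, whose protein binds the methylated core searched above, averaged 143 ± 1.07 CPM in KO and 240.1 ± 5.94 CPM in WT, a fall of 0.74 (SE 0.043). Trim28, the corepressor that ZFP57 recruits, fell by 0.70 (SE 0.034), to 565 ± 25.8 CPM in KO, against 921 ± 16.9 CPM in WT. The maintenance methyltransferase gene Dnmt1 fell by 0.70 (SE 0.043) and its partner Uhrf1 by 0.72 (SE 0.043). Ctcf, which encodes the insulator protein that binds the unmethylated H19 control region, fell by 0.54 (SE 0.046).

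In the other direction, Dnmt3l, the cofactor of imprint establishment in germ cells, rose by 1.21 (SE 0.043), to 273 ± 4.73 CPM in KO, against 118 ± 1.58 CPM in WT. Ehmt2, a histone H3 lysine 9 methyltransferase gene, rose by 0.80 (SE 0.044), and Tet2, which oxidises methylcytosine, by 0.77 (SE 0.053). Related genes did not all move alike, as Tet3 fell by 0.35 (SE 0.061), Dnmt3b fell by 0.56 (SE 0.046), Dnmt3a rose by 0.14 (SE 0.053) and Tet1 did not pass. Zfp445, which encodes a further imprint-binding zinc finger protein, did not pass (0.03, 95% interval -0.059 to 0.125). These are RNA levels, and methylation was not measured.

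**Figure D5:**
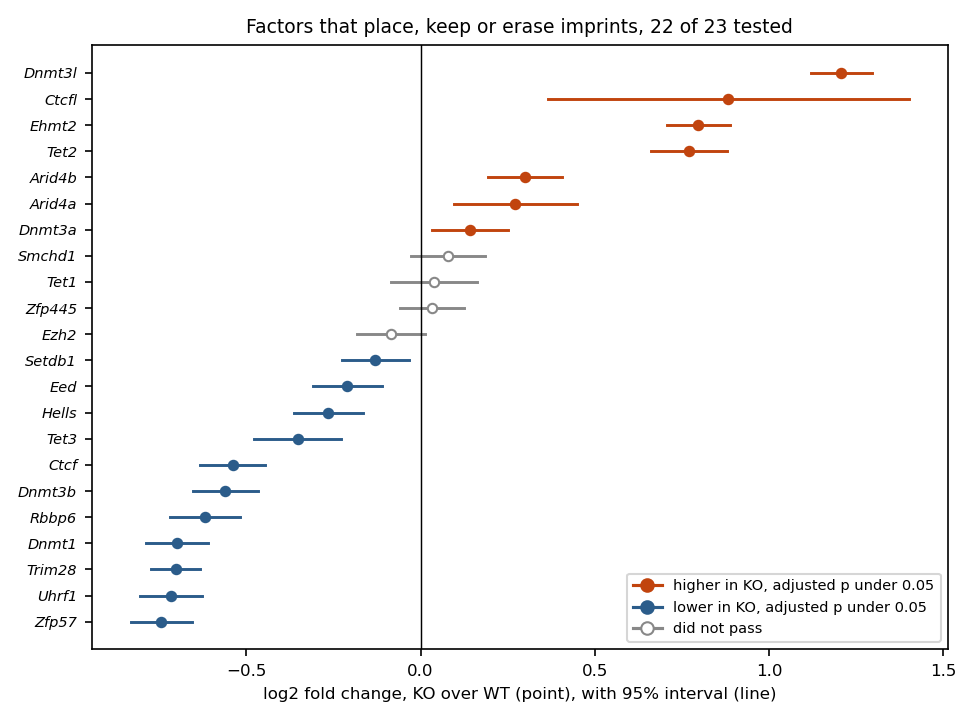
Log2 fold change, KO over WT, with its 95% interval, for 22 genes whose proteins place, keep or erase imprints. Zfp57, Uhrf1, Trim28 and Dnmt1 lie near -0.7, Dnmt3l lies highest at 1.21, and 4 open grey points did not pass.

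Partners of IGF2 and its receptors were listed as 17 genes, of which 14 were tested. Of these, 3 rose and 8 fell (78.6% changed, beside 68.6% of all genes). Insr, the insulin receptor gene, rose by 1.78 (SE 0.068), to 95.2 ± 3.47 CPM in KO, against 27.8 ± 0.703 CPM in WT. Igfbp5, encoding an IGF binding protein, rose by 1.77 (SE 0.077). Irs1, an adaptor of both receptors, fell by 1.81 (SE 0.099), and Igf2bp1, whose protein binds Igf2 mRNA, by 0.82 (SE 0.040). The receptor gene Igf1r fell by 0.44 (SE 0.045), while the ligand gene Igf2 differed by the -0.03 given above.

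Several imprinted genes are best known from the placenta, so 12 trophoblast markers were read beside them. Of 8 tested, 2 rose and 6 fell, where 34.5% of all genes rose and 34.0% fell. The 12 summed to 104 to 110.4 CPM in KO and 163 to 168 CPM in WT, and Tpbpa and Prl3d1 were at 0 in all libraries. Of 15 mesoderm and fibroblast markers, 12 were tested, and 3 rose and 8 fell (91.7% changed, beside 68.6% of all genes). The 15 summed to 638 to 659 CPM in KO and 2680 to 2698.5 CPM in WT. Most of the WT sum was Acta2, at 81.0 CPM in KO and 1016 CPM in WT, and Tagln, at 124 CPM in KO and 1037.5 CPM in WT, while Pdgfra, Col1a2 and Foxf1 rose. Of the 15 endoderm markers 12 rose and 1 fell. These shifts run with the groups in every library, and their part in the imprinted gene values was not tested.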

How the data were processed

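Counts came from 6 libraries, 3 KO and 3 WT. The authors deposited 1 table of raw read counts per Ensembl gene for each library. HISAT2 2.1.0, HTSeq 0.9.1, DESeq2 1.18.1 and the build mm10 are named per the submitters' processing notes. For the annotation release and strand setting, the sources used here name none. Of each table the 5 closing HTSeq tallies stayed out of all totals. Reads under no feature made up 42.3 to 43.5% of a library and reads assigned to genes 36.0 to 38.4%. On 11 single-exon genes inside an exon on the other strand, the median read density was 0.538 of the host's, and 7 of 11 were at 0.2 or more. Overlapping genes on opposite strands were therefore taken as not told apart. Symbols, positions and exon lengths came from GENCODE M21 (GRCm38, the build of mm10), which matched 52403 of 52636 identifiers.

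KO over WT was tested by the quasi-likelihood F test of edgeR 4.0.16 (R 4.3.3), without covariates, after filterByExpr (minimum count 10) and TMM scaling, with Benjamini-Hochberg adjustment over all 15816 genes tested and a threshold of 0.05. The SE is the log2 fold change divided by the square root of F. CPM are per library after TMM, and values after ± are SD over 3 libraries. The procedure was tested on simulated counts, where it recovered 70% of changes of 1.5-fold, 82% of 2-fold, 92% of 3-fold and 100% of 4-fold. Alternatives were RLE and upper-quartile scaling, no filter beyond 1 count in total, DESeq2 1.42.0, the replicate number as a block, and each library left out. All 38 members are named, and from each other list up to 4 genes with the smallest adjusted p, with further list genes chosen after their values were seen. The members and lists were chosen with earlier results of these data known. Replicates are those of the series design, and if they are not separate cultures, p-values measure only technical spread.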

Additional observations from a re-analysis of the deposited data

How the results depend on the processing

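Under 11 alternatives, the count of imprinted genes called stayed between 26 and 28 (14 or 15 higher, 12 or 13 lower), beside 27, 14 and 13 as reported. Leaving out each library in turn gave 26 to 28 called, 14 to 15 higher and 12 to 13 lower, and 10359 to 10585 of all genes called. Separated pairs then numbered 14 to 15, beside 13. Groups that do not overlap stay so with fewer libraries, so this pair count could not fall and is no check. The 34 genes gave 374 values, of which 359 kept direction and side of the threshold, 8 lost a call (all Zrsr1) and 2 gained one (Mirg). The 5 that turned round had not passed. These were Igf2 with upper-quartile scaling (0.0069), Zim1 without KO replicate 1 (-0.031), WT replicate 1 (-0.035) or WT replicate 3 (-0.035), and Mest without WT replicate 3 (0.017). Over the libraries left out, Zim1 ranged from -0.035 to 0.22 and Mest from -0.79 to 0.017. Without the members whose exons share bases with an opposite-strand gene, chosen after seeing the data, 14 of 17 were called, 6 higher and 8 lower, lower counts because fewer genes were tested. With the replicate number as a block, 27 were called, 14 higher and 13 lower. Libraries of the same number shared only that number (r of 0.0133, 0.00486 and -0.0131 between their deviations, not the highest for every library). Magel2, Kcnq1, Slc22a18, Ascl2, Asb4, Meg3, Rian, Mest, Zim1 and Nespas are among the genes that rest on few reads. Intervals cover spread between libraries only.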
